A study of Mus musculus with 6 samples.

Results

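Gja1, Gjb2, Gjb5 and Gjb6 are 4 genes for connexins, the proteins of gap junctions, and were followed in dental epithelial organoids (DEOs). They were taken by gene symbol and not by a cut on their values, though earlier results of these data were known when they were chosen. They are 4 of 47360 symbols in the deposited table and 4 of 18 mouse connexin genes analysed here. Each of the 4 passed the filter on low values, which asks that one of the 2 libraries compared reach an FPKM of 1, in each of 5 comparisons between media. FPKM, the fragments of a transcript divided by its length and by the size of the library, is a level per length, so that levels of different genes can be set side by side.

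A connexin spans the membrane, and a ring of connexins forms a hemichannel that docks with one on a neighbouring cell, so that ions and small molecules pass directly between the cells. Gja1 encodes connexin 43, which is widespread in epidermis and is present in ameloblasts, the cells that lay down enamel, and inherited changes in it cause oculodentodigital dysplasia with enamel defects. Gjb2, Gjb5 and Gjb6 encode beta connexins of stratified epithelia, and GJB2 and GJB6 are known for inherited deafness and skin disease.

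The DEOs were grown in Matrigel from epithelial cells of the apical incisor buds of 9-week-old female wild-type C57BL/6J mice, and RNA was sequenced after 14 days, with 1 library per medium. Each medium held Wnt3a-conditioned medium at 50%, R-spondin1-conditioned medium at 5%, EGF at 100 µg/ml, the Bmp antagonist Noggin at 200 µg/ml, the kinase inhibitor Y27632 at 10 µM and N-acetylcysteine at 1 mM. The +N medium held no further factor, +ND added the γ-secretase inhibitor DBZ, which blocks Notch signalling, at 10 µM, +NF added FGF10 at 100 µg/ml, and +NFD added both. These doses are as the labels give them, and the study's methods print the DBZ dose in mmol/L, so its unit is uncertain. The labels do not give the number of mice or say whether the 4 libraries came from one culture, and +NJ and +NFJ, the other 2 media, were not analysed here. With 1 library per medium there was no replicate spread, so no difference below has a test or a p-value, and every statement compares these libraries. Intervals cover counting error only. Fewer cells of a type and less RNA per cell cannot be told apart in RNA of whole organoids.

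The libraries held approximately 21853000 to 28948000 fragments, with +ND the shallowest, judged from the smallest steps of the FPKM values, and 19606 to 20450 genes had a value above 0. None of 7 reference genes such as Actb and Gapdh was at 0. The epithelial label was checked against Cdh1, Epcam, Krt8 and Krt18, whose summed FPKM was 133 to 666, while 8 basal keratinocyte markers such as Krt14 summed to 12321 to 20876. The endothelial markers Pecam1, Cdh5 and Kdr summed to at most 0.307. However, 8 fibroblast markers summed to 159 to 582 and 5 macrophage markers to 335 to 565. In +NFD the fibroblast sum of 582 was above the epithelial sum of 242. The 7 ameloblast markers summed to 2826 to 6229, most of it Odam. Amelx, the main enamel matrix gene, was at 323 in +NFD and at most 0.272 in the other 3 libraries, and Ambn was at 26.4 and at most 0.340. Enam was at 1.97 in +NFD and at 0 in the others, Mmp20 was at 0.194 and at 0, Klk4 was at 0 outside +ND, where it was at 0.0346, and Amtn was at 7.01 in +N and 1.13 to 1.65 in the others.

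Gjb2 and Gjb6 are neighbours on chromosome 14 and had the same order of levels across the media, whereas Gja1 on chromosome 10 was lower in +ND than in +N, where both were higher. The sequence just upstream of the start of these 3 genes is shown for that reason, from RefSeq on GRCm38.p6 and on the strand of the gene. The windows are 250 bases long and lie at chr10:56377050-56377299 (plus strand), chr14:57104703-57104952 (minus strand) and chr14:57133612-57133861 (minus strand). Capitals mark matches to any of 5 motifs, searched on both strands: the TATA box TATAAA, the AP-1 motif TGANTCA, the RBPJ core TGGGAA, the GC box GGGCGG and the CCAAT box.
Gja1: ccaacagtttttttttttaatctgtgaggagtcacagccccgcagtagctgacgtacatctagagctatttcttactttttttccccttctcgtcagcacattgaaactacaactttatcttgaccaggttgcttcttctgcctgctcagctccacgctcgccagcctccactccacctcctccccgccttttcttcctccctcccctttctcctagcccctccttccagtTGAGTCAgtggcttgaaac
Gjb2: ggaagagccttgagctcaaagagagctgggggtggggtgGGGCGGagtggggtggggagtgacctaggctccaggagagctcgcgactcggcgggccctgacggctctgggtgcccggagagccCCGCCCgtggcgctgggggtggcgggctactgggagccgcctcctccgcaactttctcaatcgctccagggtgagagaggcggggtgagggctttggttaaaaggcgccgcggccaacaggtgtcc
Gjb6: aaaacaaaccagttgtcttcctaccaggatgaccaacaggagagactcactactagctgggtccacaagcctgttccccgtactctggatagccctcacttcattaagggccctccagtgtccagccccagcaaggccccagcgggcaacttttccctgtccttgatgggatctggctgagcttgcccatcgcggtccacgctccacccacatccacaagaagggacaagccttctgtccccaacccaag

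The Gja1 window held an AP-1 match, TGAGTCA, 19 to 13 bases before the gene start, a motif present in 6.75% of 32851 promoter windows. Gjb2 held 2 GC boxes, 1 on each strand, a motif present in 32.7% of the windows. Its window was 69.2% G and C with 18 CpG dinucleotides, against medians of 52.4% and 6 over all windows. Gjb6 had no match to any of the 5 motifs, with 56.8% G and C and 5 CpG dinucleotides. The window of Gjb5, of 233 bases, held a TATA box on the opposite strand and a CCAAT box, which 12.4% and 33.8% of all windows hold. The RBPJ core, the sequence bound by the DNA-binding partner of Notch, was in none of these 4 windows and in 21.6% of all, which says only that those letters were not found there.

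In the gene intervals of the files, on GRCm38, Gja1 lay at chr10:56377300-56390419 on the plus strand. Gjb2 lay at chr14:57098600-57104702, Gjb6 at chr14:57123303-57133611 and Gjb5 at chr4:127354809-127358181, each on the minus strand. No other entry overlapped any of them. The coding sequence of each was within its last exon, with 382 codons in Gja1, 226 in Gjb2, 271 in Gjb5 and 261 in Gjb6. Of the 6 pairs, Gjb2 and Gjb6 were the most alike in coding sequence. With gaps left out, 76.7% of their aligned bases were identical, against 65.8% to 70.9% in the other 5 pairs. As a share of the longer sequence, identity was 66.3% for Gjb2 and Gjb6, and 53.1% and 59.4% for their pairs with Gjb5. On that measure the pairs with Gja1 were at 41.4% to 46.9%.

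Gja1 had by far the highest level of these 18 genes in each library. Its FPKM was 823.6 in +N and 367.8 in +ND, against 416.3 in +NF and 237.0 in +NFD. It was highest in +N and lowest in +NFD, a 3.48-fold range, and ranked 121st among all genes in +N and 366th in +NFD. These values rest on about 21832 to 71804 fragments, so that counting error is small beside the differences.

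Gjb2, which encodes connexin 26, stood at an FPKM of 46.0 in +N and 126 in +ND, against 5.10 in +NF and 25.4 in +NFD. It was highest with DBZ alone and lowest with FGF10 alone, 24.7-fold apart, and +NFD lay between +NF and +N. Gjb6, which encodes connexin 30, stood at 4.53 in +N and 15.02 in +ND, against 0.145 in +NF and 2.53 in +NFD. The order of the media was that of Gjb2, and for both genes no 2 of the 4 counting intervals overlapped. The value in +NF rests on about 9 fragments (95% counting interval 4.12 to 17.1), which puts the FPKM between 0.0683 and 0.283.

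Gjb5, a beta connexin of keratinocytes, varied least of the 4. Its FPKM was 7.14 in +N and 4.89 in +ND, against 5.81 in +NF and 4.21 in +NFD, a 1.70-fold range. Its order of media was that of Gja1. The log2 ratio without the pseudocount had a counting interval of -0.53 to -0.069 in +NF against +N, below 0, and of -0.51 to 0.072 in +NFD against +ND, which holds 0. The intervals of the levels were 6.40 to 7.95 in +N, 5.15 to 6.52 in +NF, 4.21 to 5.65 in +ND and 3.65 to 4.80 in +NFD.

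**Figure D1:**
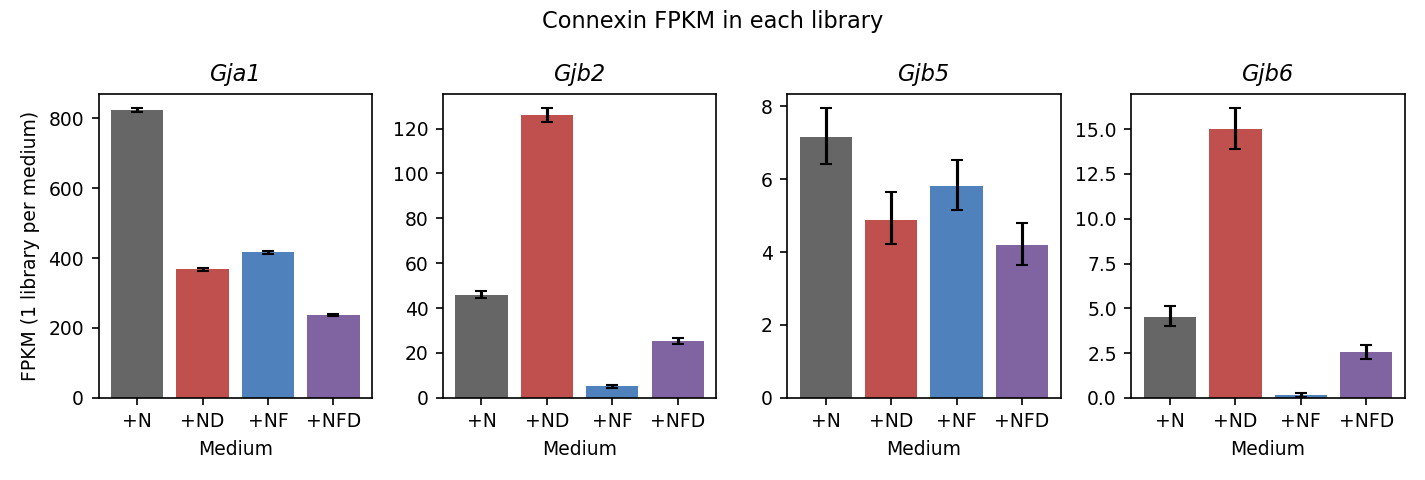
FPKM of Gja1, Gjb2, Gjb5 and Gjb6 by medium, on a linear axis from 0 that differs between the genes, each bar 1 library with its 95% interval for counting error. Gja1 lies between 237.0 and 823.6, whereas Gjb2 and Gjb6 peak in +ND at 126 and 15.02 and are lowest in +NF at 5.10 and 0.145.

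The first comparison, +ND against +N, asks what DBZ did in the absence of FGF10. Ratios are log2 ratios of FPKM + 1, a scale that understates the change of low genes, and a gene was counted at a 2-fold ratio. Gjb2 was higher in +ND by 1.43 and Gjb6 by 1.53. Gja1 was lower, with a ratio of -1.16, and Gjb5 had a ratio of -0.47, short of 2-fold. Thus 2 of the 4 were counted as higher and 1 as lower, where 5.88% and 5.29% of all 13173 genes tested were, or 11.2% in either direction. The median ratio of all genes was 0.10.

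The second, +NF against +N, asks what FGF10 did in the presence of Noggin. Gjb2 had a ratio of -2.95 and Gjb6 one of -2.27, and these 2 were counted as lower, where 2.44% of 13090 genes were. Without the pseudocount the ratio of Gjb6 was -4.96 (counting interval -6.07 to -3.97). At an FPKM of 0.145 in +NF, Gjb6 passed the filter here only through +N. Gja1 missed the 2-fold limit narrowly, with a ratio of -0.98, a 1.98-fold lower FPKM. It passed the limit under 3 other scalings, at -1.04 to -1.10, and its weakest value under any alternative was -0.87. Gjb5 had a ratio of -0.26. No member was counted as higher, where 2.76% of all genes were, so that 2 of the 4 were counted in either direction against 5.19%.

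The third, +NFD against +N, sets both factors against neither. Gja1 was counted as lower with a ratio of -1.79, where 4.03% of 13358 genes were. The ratios of Gjb2, Gjb5 and Gjb6 were -0.83, -0.65 and -0.65, short of 2-fold, and none of the 4 was counted as higher, where 5.85% of all genes were (9.88% in either direction). Gjb2 reached -1.01 when ratios were centred on the median of all genes.

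**Figure D2:**
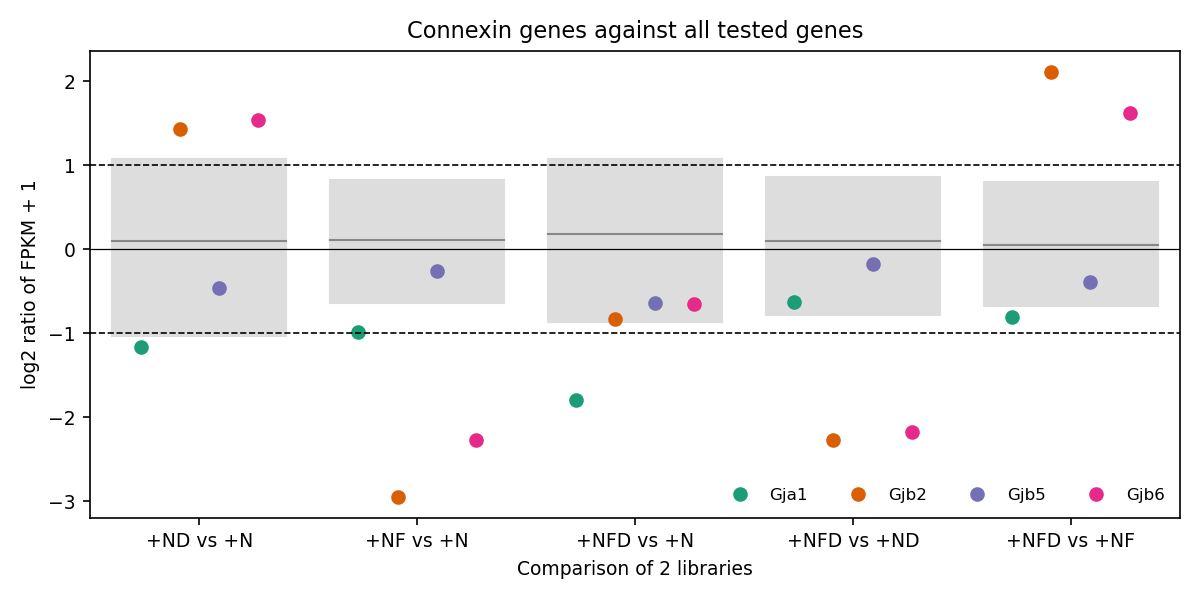
Log2 ratios of FPKM + 1 of the 4 genes in the 5 comparisons between single libraries, with dashed lines at a 2-fold ratio, and the grey boxes and lines mark the 5th to 95th percentile and the median of all genes tested. Gjb2 and Gjb6 are above the line in +ND against +N, at 1.43 and 1.53, and in +NFD against +NF, at 2.11 and 1.63, whereas Gja1 is below 0 in each comparison.

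The remaining 2 comparisons change 1 factor in the presence of the other. With DBZ present, adding FGF10 (+NFD against +ND) gave Gjb2 a ratio of -2.27 and Gjb6 one of -2.18, both counted as lower, where 3.11% of 13293 genes were, and none as higher, where 3.39% were (6.5% in either direction). Gja1 had -0.63 and Gjb5 had -0.18. With FGF10 present, adding DBZ (+NFD against +NF) gave Gjb2 a ratio of 2.11 and Gjb6 one of 1.63, both counted as higher, where 3.72% of 13349 genes were, and none as lower, where 2.69% were (6.41% in either direction). Gja1 and Gjb5 had -0.81 and -0.39. Without the pseudocount the ratio of Gjb6 in the last comparison was 4.12 (counting interval 3.12 to 5.24). There Gjb6 passed the filter only through +NFD. The comparisons share libraries, so they are not separate evidence of one another.

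The FGF10 ratio with DBZ minus that without it was 0.35 for Gja1, 0.68 for Gjb2, 0.079 for Gjb5 and 0.091 for Gjb6. None of the 4 differences reached 1, where 3.804% of 13748 genes did and 4.26% were at -1 or below. The value for Gjb6 rested on the pseudocount, since it was 1.72 with a pseudocount of 0.1 and 2.40 without one. With 1 library per medium this difference could not be tested.

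Relative to the other connexin genes analysed here, the 4 members also differed in share between media. The FPKM of the 18 genes summed to 882 in +N and 516 in +ND, against 430.4 in +NF and 273 in +NFD. Of that sum Gja1 made up 93.3% in +N and 71.3% in +ND, against 96.7% in +NF and 86.7% in +NFD. The share of Gjb2 was 5.22%, 24.4%, 1.18% and 9.29% in the same order of media. Gja1 thus led in each library, but its level was 17.9 times that of Gjb2 in +N and 2.92 times in +ND, against 81.6 times in +NF and 9.34 times in +NFD. The Gjb2 level was 8.40 to 10.2 times that of Gjb6 in +N, +ND and +NFD and 35.1 times in +NF, where Gjb6 rested on about 9 fragments.

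**Figure D3:**
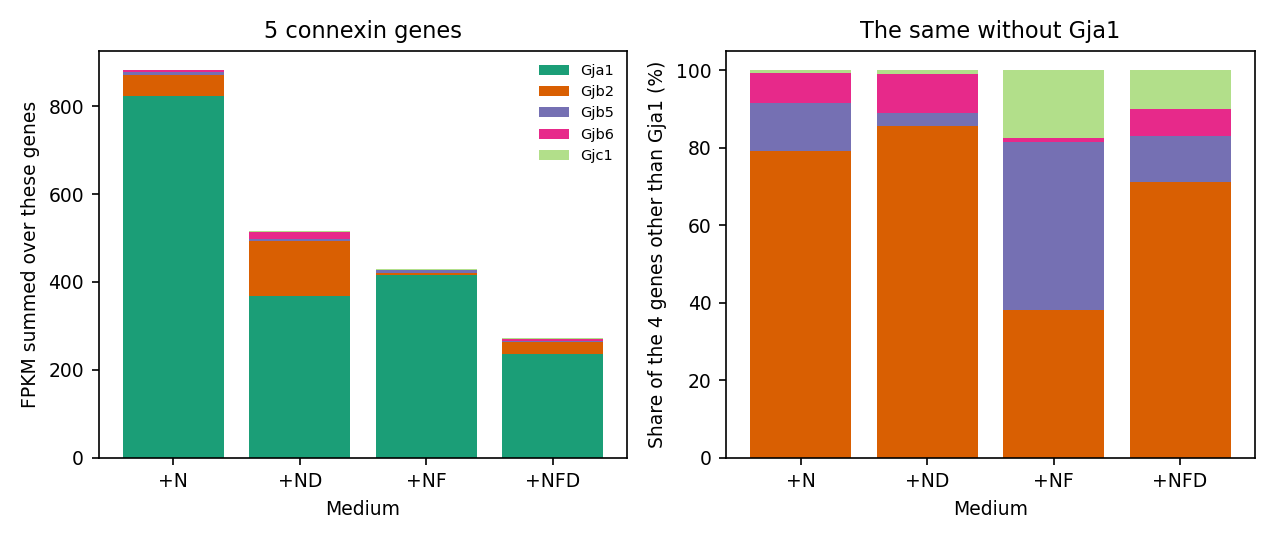
FPKM of Gja1, Gjb2, Gjb5, Gjb6 and Gjc1 stacked by medium, and the shares of the 4 genes other than Gja1 in their own sum, each bar 1 library. Gjb2 holds 85.6% of the second sum in +ND and 38.1% in +NF, where Gjb5 holds 43.4%.

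Of the other 14 connexin genes analysed here, Gjc1 was the 1 that reached an FPKM of 1 in any library. Gjc1, which encodes connexin 45 and is best known from heart and smooth muscle, was lowest in +N at 0.377 and highest in +NFD at 3.54, with 1.34 in +ND and 2.34 in +NF. Its ratios against +N were 0.76, 1.28 and 1.72, and it was thus lowest in the medium where Gja1 was highest, and highest where Gja1 was lowest. The remaining 13 were below 1 in each of the 4 libraries, with Gja4 the highest at 0.612 and 5 of them, Gja10, Gjc3, Gjd2, Gjd4 and Gje1, at 0 throughout.

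By position, Gja3, Gjb2 and Gjb6 lay within 98.0 kb on chromosome 14, with 18.6 kb between Gjb2 and Gjb6, and the predicted gene Gm4491 lay between those 2. Both were higher in +ND and lower in +NF than in +N.

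**Figure D4:**
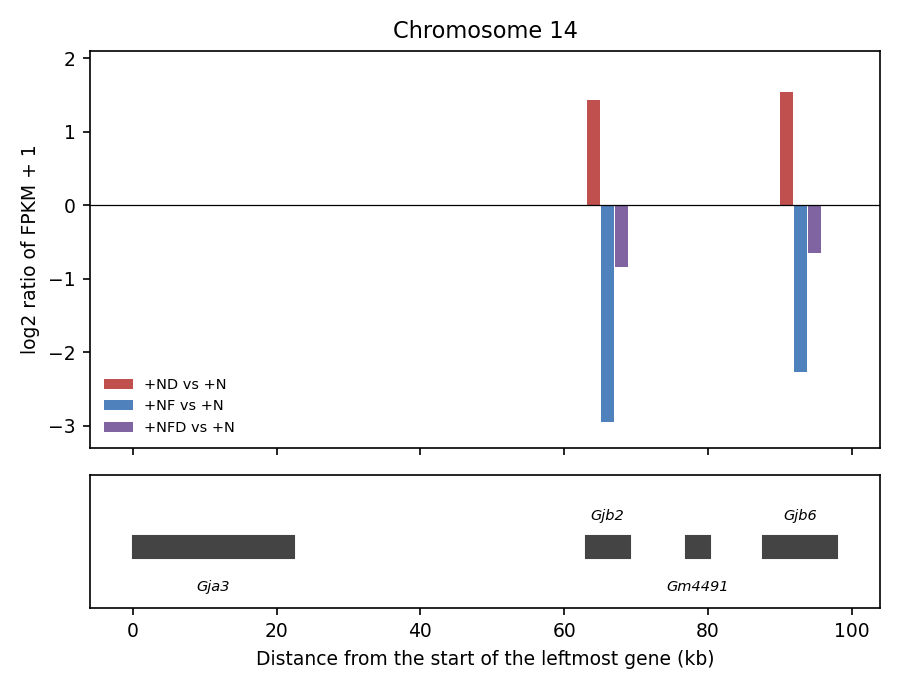
Log2 ratios of FPKM + 1 against +N for Gjb2 and Gjb6, above a map of the genes of this part of chromosome 14 by distance in kb, with 1 library per medium. Gjb2 and Gjb6 have ratios of 1.43 and 1.53 in +ND and of -2.95 and -2.27 in +NF.

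Pannexins form channels related in shape to hemichannels but not in sequence. Panx1 stood at an FPKM of 6.90 in +N and 15.9 in +ND, against 8.46 in +NF and 16.3 in +NFD. It was higher in both DBZ libraries, with ratios of 1.10 in +ND against +N and 0.87 in +NFD against +NF. Panx2 and Panx3 reached at most 0.507 FPKM. Of 16 genes for connexin partners and modifiers, such as the scaffold Tjp1 and the kinase Src, 15 passed the filter. Of these 15, 1 was counted as lower in +ND, in +NF and in +NFD against +N, where 5.29%, 2.44% and 4.03% of all genes were. In each of these comparisons it was Tjp3, a tight junction scaffold, with ratios of -2.12, -1.04 and -1.71. Dbn1, which encodes the actin-binding protein drebrin, was the 1 counted as higher in +NFD against +ND, at 1.11, where 3.39% of all genes were. No partner was counted in +NFD against +NF, where 6.41% of all genes were in either direction. The median of the partners that passed lay between -0.15 and 0.091 in the 5 comparisons, where that of all genes lay between 0.048 and 0.18.

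Markers of suprabasal keratinocytes, the differentiating layers of stratified epithelium, moved with Gjb2 and Gjb6 in part. Summed over 12 markers the FPKM was 929.6 in +N and 3125 in +ND, against 127 in +NF and 865 in +NFD, and none was at 0. Krtdap alone was at 1982 in +ND, and Krt13 was at 435 in +N. In +ND against +N, 8 of the 12 were counted as higher and 3 as lower. In +NF against +N, 8 of the 11 that passed were lower and none higher, and in +NFD against +NF 10 of 12 were higher and none lower. In +NFD against +ND 10 were lower and none higher, and against +N 5 were higher and 4 lower. Over all genes, 11.2%, 5.19% and 9.88% were counted in either direction in +ND, +NF and +NFD against +N. The shares were 6.5% in +NFD against +ND and 6.41% in +NFD against +NF. Krt1 was at 0.300 in +N and 0.0123 in +NF, and Dsg1a and Dsc1 were at 0.424 and 0.119 in +NF. Where these genes passed against such a library, they did so only through the other one, which fixed their direction. The median ratio of the markers in +NFD against +N was 0.58, whereas Gjb2 and Gjb6 were at -0.83 and -0.65. Krt10, Krt13 and Krt4 were those lower in +ND, with ratios of -1.49, -1.75 and -2.67. Their part in the result for Gjb2 and Gjb6 was not tested.

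Other lists moved with Gja1 in part. The 8 basal keratinocyte markers summed to 20876 in +N and 12321 in +ND, against 17081 in +NF and 14492 in +NFD, most of it Krt14 and Krt5, so that +N was highest, as for Gja1, and +ND lowest. Of the 8, none was at 0, and 1 was counted as lower and none as higher in +ND against +N, with a median ratio of -0.0036. In +NF against +N 1 was higher and 1 lower, and in +NFD against +N 1, Itgb4 with a ratio of 1.57, was higher and 2 lower. The 5 macrophage markers summed to 565, 459, 400 and 335, most of it Lyz2, none was at 0 and none was counted in either direction in any of the 5 comparisons. The 8 fibroblast markers summed to 254, 225, 159 and 582, and 7 of 8 were counted as higher in +NFD against +N, the library in which Gja1 was lowest. Among those 7, Thy1 and Pdgfra were below the filter in +N and passed only through +NFD, so they could not be counted as lower. Of the 7 ameloblast markers, 5 passed in +NFD against +N, 3 of them counted as higher and 2 as lower. Those 3, Amelx, Ambn and Enam, also passed only through +NFD and could not be counted as lower. The 4 epithelial markers were all lower in +ND than in +N by at least 2-fold. The shares of all genes counted in either direction were 11.2%, 5.19% and 9.88% in +ND, +NF and +NFD against +N. The part of these lists in the values of the members was not tested.

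**Figure D5:**
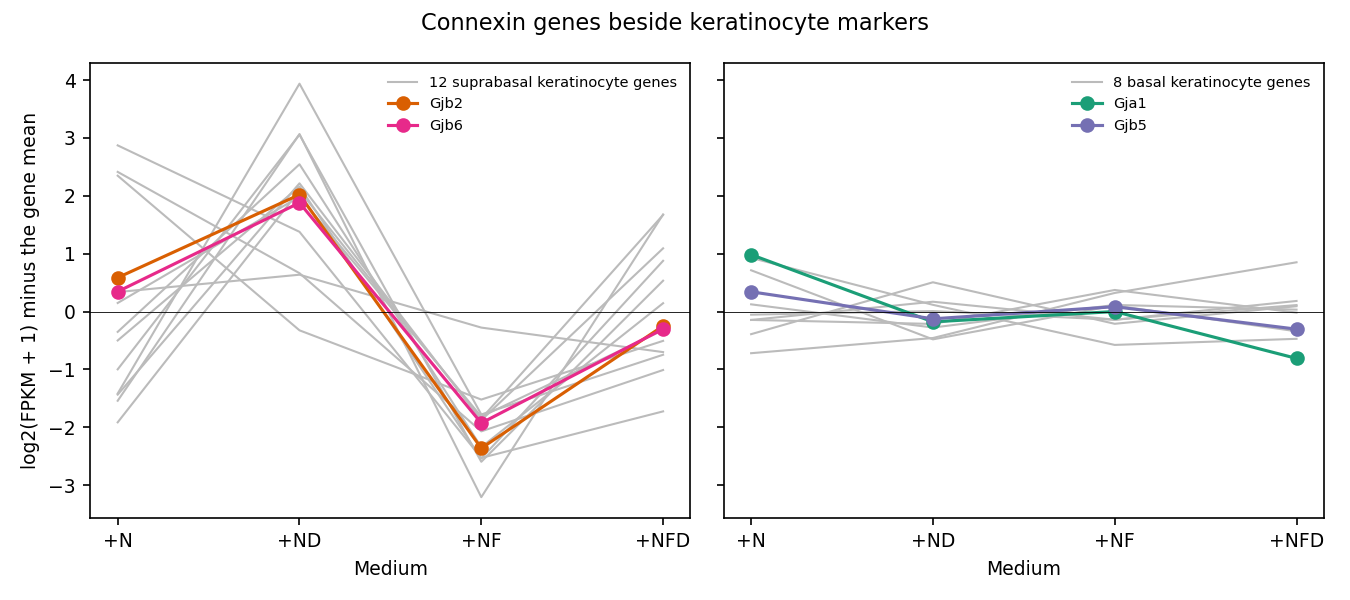
Log2(FPKM + 1) minus the mean of each gene over the 4 libraries, by medium, with Gjb2 and Gjb6 beside 12 suprabasal markers on the left and Gja1 and Gjb5 beside 8 basal markers on the right, each grey line 1 marker. Gjb2, Gjb6 and the suprabasal sum (3125 in +ND, 127 in +NF) are highest in +ND and lowest in +NF.

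The genes closest to each member in pattern were found by the root mean square difference of centred log2(FPKM + 1) over the 4 libraries, among 10373 genes. For Gja1 they were Chl1, a neural cell adhesion gene, Bcl2a1b, a Bcl2 family member with near-identical copies, and Acp5, the tartrate-resistant acid phosphatase of osteoclasts and macrophages, at 0.064, 0.069 and 0.069. For Gjb2 they were Gsta1, a glutathione transferase with close paralogs, Sprr1b, a cornified envelope precursor, and Defb4, a beta-defensin, at 0.22, 0.23 and 0.25, and Gjb6 came 4th at 0.26. For Gjb6 they were Defb4, the desmosomal cadherin Dsg1a, which has close paralogs, and Ugt1a7c, which shares exons with its gene cluster, at 0.033, 0.13 and 0.16, and Gjb2 came 5th. For Gjb5 they were the zinc finger gene Hivep3, the endoplasmic reticulum GTPase Atl2 and the transcriptional coregulator Cited2, at 0.026, 0.028 and 0.035. Values of genes with near-identical paralogs are uncertain, since the copies can share fragments. Distances that involve Gjb6 also depend on the pseudocount of 1, since its FPKM in +NF was 0.145. Gjb6 was at 4.53 in +N, whereas Defb4 was at 8.28 in +N and 0.857 in +NF.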

How the data were processed

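RNA of DEOs was sequenced by the authors on an Illumina HiSeq from TruSeq libraries, with 1 library per medium. Per the labels and methods, reads were checked with FastQC 0.11.9, trimmed with Trim Galore 0.6.5 and aligned to GRCm38 with TopHat2 2.1.1. The authors deposited FPKM values estimated with Cufflinks. The annotation release and the strand setting are not given in the sources used here. FPKM depends on the other transcripts of a library, so a few abundant genes lower the values of the rest.

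Deposited FPKM of entries with the same symbol were summed (123 symbols). A pseudocount of 1 was added to both values before each log2 ratio, genes below an FPKM of 1 in both libraries were left out, and a 2-fold ratio was counted, after the fold limit of the study. No test was run. Approximate fragments were recovered from the smallest step of FPKM times length, over 8367 genes with 1 transcript in GENCODE M21, to which 46994 gene IDs matched, and exact Poisson intervals at 95% were computed from them. They depend on that step and on the length of the longest annotated protein-coding transcript of the gene, and they cover counting error only. Gja1 has 8 annotated transcripts and Gjb6 has 4, so that length is an assumption for them. Coding sequence identity was used in place of the planned protein identity, since no protein table was used here. Promoters came from RefSeq, and each of the 4 members matched. Python 3.11.15, pandas 2.3.3, scipy 1.17.1 and biopython 1.88 were used, and scripts were tested on simulated data.

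The named genes were the 4 members, other connexins analysed that reached an FPKM of 1, pannexins, partners with a 2-fold ratio, markers beside a member, the 3 genes nearest to each member (FPKM of at least 5 in any library, a longest transcript of at least 300 nt) and 7 reference genes. The members and the lists were chosen with earlier results of these data known. Other pseudocounts, filters and scalings were tried. Of the connexin genes, 2 are not reported here and enter no sum or share of connexins.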

Additional observations from a re-analysis of the deposited data

Results flagged for a closer look

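In 2 genes beside the connexins the ratio for 1 factor took opposite directions with and without the other, and none of these differences was tested, since each medium had 1 library. For Tjp3 the FGF10 ratio was -1.04 without DBZ and 0.41 with it, a difference of 1.45. For Dbn1 the DBZ ratio was -0.20 without FGF10 and 0.25 with it, a difference of 0.45. No member had opposite directions in this way.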

How the results depend on the processing

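No paired analysis was possible because each medium had 1 library, and for the same reason no library could be left out. Each of the 20 ratios of the members kept its direction in all 176 values under the alternatives, and 172 kept their side of the 2-fold limit. Part of these values was fixed in advance. Dropping or raising the filter, or taking the highest entry of a symbol in place of the sum, could not change the ratio of a member. A change of pseudocount could not change the direction of a ratio, so only the scalings and the centring could have done so. A filter at 5 FPKM gave no value for Gjb6 in +NF against +N, +NFD against +N and +NFD against +NF or for Gjb5 in +NFD against +ND, so the Gjb6 counts in +NF against +N and +NFD against +NF were lost there. The 4 values past the limit were Gja1 in +NF against +N, at -1.06 with upper-quartile scaling, -1.10 with centred ratios and -1.04 with scaling on 7 reference genes (chosen after seeing the data), and Gjb2 in +NFD against +N, at -1.01 with centred ratios. With a pseudocount of 0.1, genes counted as higher were 1212 in +ND against +N (774 with a pseudocount of 1), 712 in +NF against +N (361; lower 480 against 319), 1271 in +NFD against +N (782) and 818 in +NFD against +ND (450), 1 other connexin was higher in +ND against +N and 1 in +NFD against +ND, 1 partner was higher in +NFD against +N, and the Gjb6 difference was 1.72. Without a pseudocount these were 1222, 720, 1269, 829, 1, 1, 1 and 2.40. With a filter at 5 FPKM, other connexins higher were 0 in +NF and 0 in +NFD against +N, and genes higher were 488 in +NFD against +N, 290 in +NFD against +ND and 307 in +NFD against +NF. Rescaled to the same sum (TPM), 0 partners were lower in +NF against +N, and 1 partner was higher in +NFD against +N. Among the genes counted in either direction, the part counted as higher moved with centring from 52.6% to 42.2% in +ND against +N. It moved from 53.1% to 37.6% in +NF and from 59.2% to 43.1% in +NFD against +N. In +NFD against +ND it moved from 52.1% to 40.5%, and with TPM it was 64.9% in +ND against +N. Rescaling to TPM moved the median of all genes against +N from 0.10 to 0.24 in +ND, from 0.12 to 0.22 in +NF and from 0.18 to 0.30 in +NFD. The causes were not tested. Depth limits Gjb6 in +NF, at about 9 fragments.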
